A study of Homo sapiens with 6 samples.

Results

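The RNA recovered with a control antibody from WaGa cells was described here from the 3 IgG IP libraries of a RNA immunoprecipitation sequencing (RIP-seq) series of 6 libraries. The 3 were taken by their titles, which name the IgG antibody and replicates 1 to 3. The remaining libraries came from IGF2BP3 IP and were not used. All 3 libraries shared one background, namely untreated WaGa cells of genotype WT grown in RPMI medium with fetal bovine serum, lysate bound to IgG on Protein G Sepharose beads, proteinase K digestion and Trizol extraction. The series calls the replicates independent, without saying whether they were separate cultures. WaGa is 1 cell line, derived from 1 patient, so its profile need not hold for other Merkel cell carcinomas (MCC). No RNA of the whole lysate was analysed here, and binding to beads or IgG and level in the cell cannot be told apart.

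MCC is a neuroendocrine skin cancer. Virus-positive lines such as WaGa carry Merkel cell polyomavirus and grow in suspension. Merkel cells, the touch-sensing cells of the skin, use the transcription factors ATOH1, POU4F3, ISL1 and SOX2, hold granules with chromogranins, and carry the simple-epithelium keratins KRT8, KRT18, KRT19 and KRT20. MCC shares these features and is told apart from other small round cell tumors by KRT20. A control IP holds the RNA that sticks to beads and IgG without a chosen target, so short abundant transcripts are usually prominent in it.

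The tables listed 60651 human genes with raw read counts and with TPM, which are transcript shares scaled by gene length to the same total in each library. The libraries held 9758759, 14886414 and 12359397 counts in replicates 1, 2 and 3. A gene was called present with a TPM of at least 1 in each of the 3 libraries, not detected with 0 counts and a TPM of 0 in each, and trace otherwise. A gene with a mean TPM of at least 100 was called abundant. A count of 0 in all 3 libraries allowed up to 3 counts of 37004570, or 0.0811 CPM (counts scaled by the total of the library, as TPM are but without gene length). In single libraries it allowed 0.307, 0.202 and 0.243 CPM, and this limit covers counting error only. With 1 group there was no test, and levels of single genes below are TPM in replicates 1, 2 and 3 in that order.

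Of the 60651 genes, 12008 were present, 33490 were not detected and 15153 were trace. Among the 19951 protein-coding genes, 10603 or 53.1% were present and 4576 or 22.9% were not detected, and these 2 shares are the background for each list below. Abundant protein-coding genes numbered 1242. Long noncoding RNA genes were mostly below the level for present, with 1003 of 16892 present (5.94%), 10015 not detected (59.3%) and 5874 trace. Of 15271 pseudogenes of all kinds, 344 were present (2.25%). The present protein-coding genes had a median level of 16.9 TPM, against 4.11 TPM for the present lncRNA genes. Abundant nuclear genes had shorter transcripts than other present ones, with a median of 2130 bases in 1228 genes, against 3543 bases for 9355 genes that were present but not abundant. Their GC content was also lower, at 42.9% against 47.8%, and it reached 53.5% in trace genes. Genes that were not detected had a median of 1906 bases and a GC content of 49.5%, below that of trace genes.

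**Figure D1:**
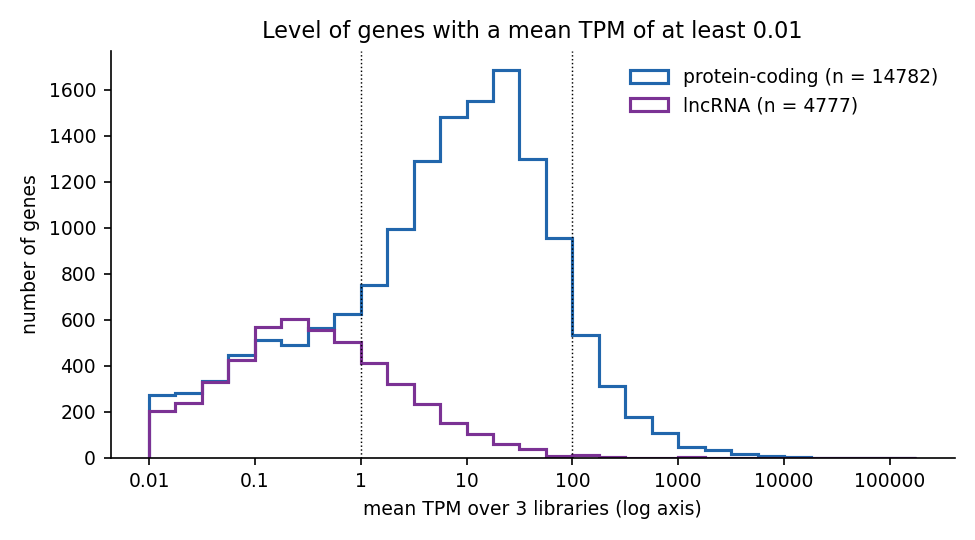
Histogram of the mean TPM of protein-coding and lncRNA genes over the 3 control IgG libraries, for genes with a mean TPM of at least 0.01 (log axis; dotted lines at 1 and 100 TPM). Most of the 14782 protein-coding genes lie between 1 and 100 TPM, and most of the 4777 lncRNA genes lie below 1 TPM.

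Structured noncoding RNAs led the pool by TPM. RN7SK, the 7SK RNA that holds back transcription elongation, had 105483, 51233 and 59519 TPM. RPPH1, the RNA of ribonuclease P, had 35039.5, 13607 and 14608 TPM. RN7SL1, an RNA of the signal recognition particle, had 26187, 16279 and 12812 TPM. Replicate 1 was the highest in each of these, and also in RMRP, the RNA of ribonuclease MRP, at 20135, 16538 and 15655 TPM. The listed structured RNAs together held 23.3% of the TPM in replicate 1 and 12.6% and 12.8% in replicates 2 and 3. The raw counts gave them 0.198%, 0.0906% and 0.0741%. Counts are not scaled by length, and 4 of the 20 genes with the highest mean TPM (RN7SK, RPPH1, RMRP and RN7SL2) had 0 counts, against 12377, 8541 and 4896 for RN7SL1. Transcripts this short are uncertain in TPM, and copies of RN7SL1 and RN7SL2 share sequence. Of 6212 genes with a TPM of at least 10 in each library, 93 had under 10 counts in each. In GENCODE version 44, 69.7% of the 89 of those found there shared at least 50% of their exon bases with another gene on the same strand, against 1.26% of 6115 others. The RMRP entry given above shared none in that version. The tables also held another RMRP entry, listed as a lncRNA, at 2302, 1046 and 799.9 TPM with 0 counts. The authors used GENCODE version 37, and whether the RMRP entries share exon bases there was not tested. RPL26 also had few counts for its TPM, with 92, 136 and 95 counts at 8485, 6885 and 7089 TPM.

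**Figure D2:**
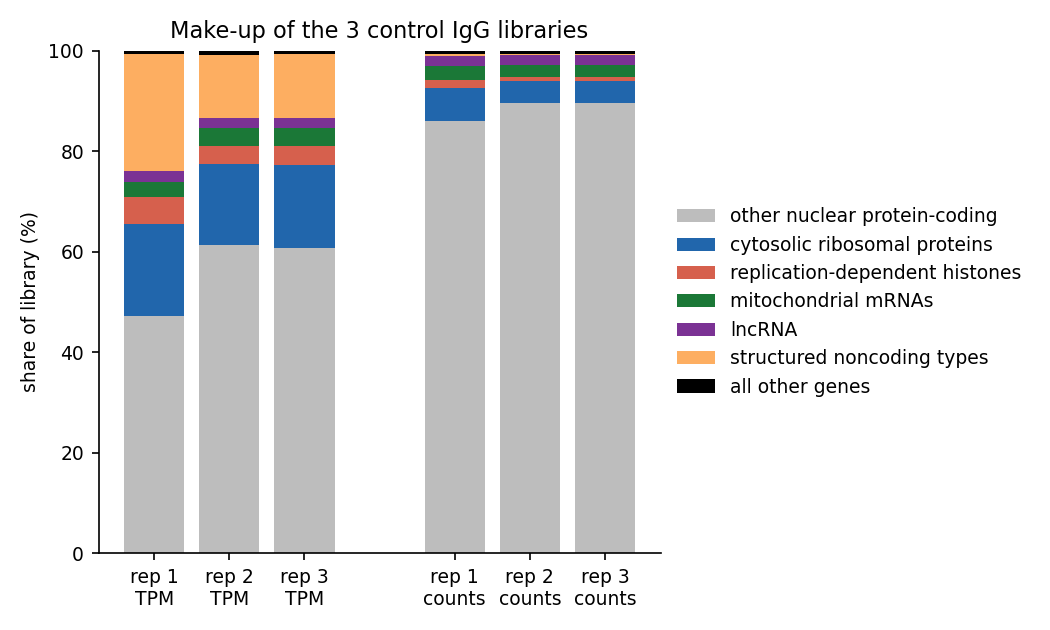
Share of each control IgG library (percent, stacked bars from 0 to 100) held by gene groups, in TPM on the left and in raw counts on the right. Structured noncoding types take a larger part of the TPM in replicate 1 than in replicates 2 and 3, and almost none of the raw counts.

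Messenger RNAs of the translation machinery were the most abundant nuclear protein-coding genes. EEF1A1, the factor that brings aminoacyl-tRNA to the ribosome, had 10633, 12253 and 12810 TPM, and RPS27, a small-subunit protein, had 12954, 10031 and 11749 TPM. The ranges of these overlapped, so their order is not set. Of the 20 most abundant nuclear protein-coding genes, 16 coded for cytosolic ribosomal proteins. The others were EEF1A1, PPIA (a prolyl isomerase, 6055, 6856 and 7234 TPM), NDUFB1 (a subunit of respiratory complex I, 5061, 5452 and 5616 TPM) and H1-5 (a linker histone, 6038, 3443 and 3564 TPM). All 79 cytosolic ribosomal protein genes were present and 78 were abundant. They held 18.3%, 16.1% and 16.4% of the TPM, but 6.67%, 4.48% and 4.47% of the raw counts, which are not scaled by length.

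Many transcripts of this machinery begin with a 5′ terminal oligopyrimidine tract, a C at the first base followed by a run of C and T, through which their translation is controlled. The first bases of 12 of the 20 most abundant nuclear mRNAs in WaGa are shown to let this be read, including the 4 with a listed start but no tract. Each line below gives 10 bases before and 20 bases from the RefSeq start base on GRCh38.p14, with a tract at the start base in capitals.
EEF1A1 (chr6:73521013-73521042, minus strand): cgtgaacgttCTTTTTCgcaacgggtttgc
RPS27 (chr1:153990752-153990781, plus strand): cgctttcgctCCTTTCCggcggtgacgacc
RPL26 (chr17:8383174-8383203, minus strand): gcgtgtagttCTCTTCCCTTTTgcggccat
RPS23 (chr5:82278335-82278364, minus strand): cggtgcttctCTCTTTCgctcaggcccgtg
RPL15 (chr3:23917122-23917151, plus strand, 1 of 3 starts): aaggcattgtgggagtacagctctttcctt
RPS13 (chr11:17077648-17077677, minus strand): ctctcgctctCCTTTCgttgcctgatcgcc
RPL41 (chr12:56116623-56116652, plus strand): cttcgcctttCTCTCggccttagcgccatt
RPS18 (chr6:33272065-33272094, plus strand): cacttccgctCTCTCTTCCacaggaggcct
RPL24 (chr3:101686699-101686728, minus strand): atgattctctCTTTCTTTTCgccatctttt
PPIA (chr7:44796671-44796700, plus strand): ggctcgtgccgttttgcagacgccaccgcc
NDUFB1 (chr14:92121687-92121716, minus strand): cgcagcttccactggcgcgggttgagttcc
H1-5 (chr6:27867569-27867598, minus strand): gcatagcagcaacgcaaaacctgctcttta

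A C at the start base followed by at least 4 bases that were each C or T, on the transcribed strand only, was counted as a tract. It was found in 11 of the 15 most abundant nuclear mRNAs that had a start sequence, and not in PPIA, NDUFB1, H1-5 or the ribosomal protein gene RPL15, for which none of the 3 listed starts matched. Among ribosomal protein genes it stood at 47 of 63 with a start sequence (74.6%), out of 79 genes. The share was 11% of the 971 abundant genes that are not ribosomal proteins, 7.70% of 8665 present genes and 3.84% of 3177 genes that were not detected. Over all 15174 protein-coding genes with a start it was 6.33%, counting a gene once if any of its starts matched, and over all 35116 start sequences it was 4.07%. The match is a description of these letters, not a measured start in WaGa.

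The Merkel lineage transcription factors were high, and 10 of 12 listed were present. HES6, a basic helix-loop-helix factor of neurogenesis (chr2:238238267-238240662, GRCh38), had 516, 1042 and 969 TPM. POU4F3, a POU-domain factor of Merkel and hair cells (chr5:146338839-146341728), had 429, 570 and 599 TPM. ATOH1, the factor that specifies Merkel cells (chr4:93828753-93830964), had 338, 539 and 538 TPM. INSM1, a zinc finger factor of neuroendocrine cells, had 196, 343 and 355 TPM, and ISL1, a LIM homeodomain factor, had 131, 208 and 211 TPM. Within each of the 3 libraries the order HES6, POU4F3, ATOH1, INSM1, ISL1 was the same, while the ranges of neighbors overlapped because replicate 1 was lower. Below them came GFI1 at 64.5, 108 and 119 TPM and the stem cell factor SOX2 at 61.1, 109 and 107 TPM, which did not keep an order between them. LHX3, SOX11 and PROX1 were lower, with means from 14.1 to 28.5 TPM. The proneural factor NEUROD1 had 0, 0 and 2 counts.

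Granule and synaptic genes were present for 14 of 16. CHGA, the chromogranin of dense-core granules, had 511, 752 and 728 TPM and lay above all the others without overlap. SCG5 (259, 321 and 316 TPM) and CPE (carboxypeptidase E, which trims peptide hormones, 199.99, 361 and 325 TPM) overlapped each other. UCHL1 and SNAP25, a ubiquitin hydrolase of neurons and a vesicle fusion protein, followed at means of 259 and 223 TPM. The granin family was uneven. CHGB had 3.0, 5.68 and 4.67 TPM and SCG2 had 0, 1 and 3 counts, far under the level of CHGA. The prohormone convertase PCSK2 (17.1, 22.7 and 21.6 TPM) lay above PCSK1 (2.38, 5.39 and 4.37 TPM) without overlap. DDC, which makes dopamine and serotonin, had 0.93, 0.48 and 1.43 TPM.

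All 6 simple-epithelium genes were present. KRT20 (chr17:40875889-40885242) had 430.4, 627 and 588 TPM, and the ranges of KRT20 and EPCAM, an epithelial adhesion molecule with 194, 296 and 288 TPM, did not overlap. KRT18 had 117, 137 and 144 TPM and its partner KRT8 had 117, 122 and 124 TPM. KRT19 was at 31.9, 44.1 and 44.9 TPM. CDH1, the E-cadherin of epithelial junctions, was low and uneven, with 1.10, 8.16 and 3.48 TPM. Of 55 keratin genes in the table, 8 were present and 35 were not detected.

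Taken over the 3 lists, 30 of 34 Merkel and neuroendocrine markers were present, and their summed level ran from 4220 to 6485 TPM. Of 71 markers of 13 other cell types, 6 were present, 27 were trace and 38 were not detected, and their summed level ran from 50.7 to 75.2 TPM. Most of that was 1 gene, DCN (decorin, a matrix proteoglycan), with 35.8, 54.1 and 42.0 TPM on 479, 762 and 612 counts. The defining fibroblast genes COL1A1, COL1A2 and COL3A1 had at most 1 count in any library, and LUM, PDGFRA and PDGFRB had 0. The other present markers included KRT10 (6.41, 6.39 and 5.56 TPM), KRT15 (2.40, 4.05 and 5.07 TPM), CLDN5 and CD79B, and the last 2 had means of 1.69 and 1.76 TPM. KRT14, KRT1, MLANA, TYR, SOX10, CDH5, CD3D, CD3E, CSF1R, PTPRC, ALB and GFAP were not detected. The listed markers went with the label of an MCC line. This is a description and no test of the label, since the lists were chosen with earlier results of these data known. Fewer cells of a type and less RNA per cell cannot be told apart in bulk libraries. PAX5, a B-lymphoid factor known from MCC, was present at 2.57, 5.95 and 6.41 TPM, and DNTT, the terminal transferase of lymphocytes, had 3, 1 and 1 counts.

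**Figure D3:**
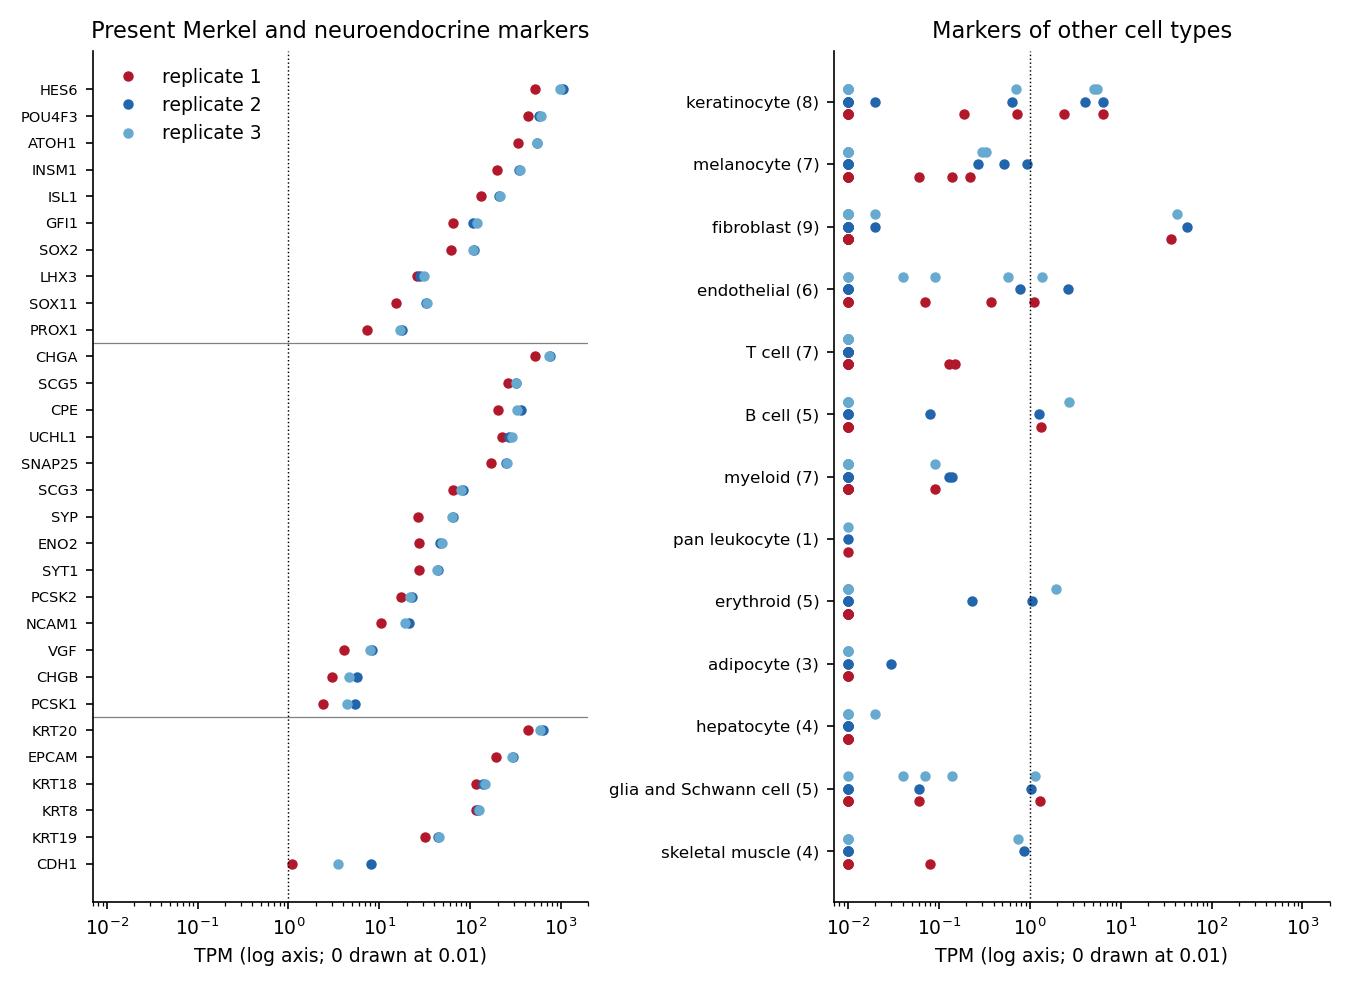
TPM of marker genes in control IgG replicates 1, 2 and 3 (log axis, a value of 0 drawn at 0.01, dotted line at 1 TPM), with the 30 present of 34 Merkel and neuroendocrine markers by gene on the left and all 71 markers of other cell types by list on the right. The left panel shows present genes alone, so all of it lies at or above 1 TPM, and 6 genes of the right panel do so in each library.

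Neuronal genes were widespread but in the middle of the range. Of 13 listed neuronal cytoskeleton and RNA-binding genes, 10 were present. ELAVL3, a neuronal RNA-binding protein, led with 95.4, 158 and 165 TPM, and TUBB3, the neuronal beta-tubulin, had 75.4, 101 and 108 TPM on only 74, 86 and 59 counts. The ranges of MAP2, the neurofilament genes NEFM, INA and NEFL, and ELAVL4 chained together, with means from 54.5 to 78.7 TPM. MAPT, the tau gene, was at 4.67, 9.88 and 9.94 TPM, and STMN2, PRPH and GAP43, genes of growing axons and peripheral neurons, were trace. The touch channel gene PIEZO2 had 9.57, 15.6 and 17.2 TPM on 784, 1487 and 1218 counts. PIEZO1, the related channel of many other tissues, had 0, 2 and 2 counts.

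The peptide repertoire was narrow. Of 25 neuropeptide and hormone genes, 6 were present and 11 were not detected. TAC3, which codes for neurokinin B, had 394, 356 and 364 TPM and lay above all other peptide genes in every library. ADM, CCK, CALCB, VIP and NPY formed 1 overlapping group with means of 14.8 to 18.03 TPM. CALCB and CALCA, the neighboring genes for calcitonin gene-related peptides, stood apart, with 12.3, 17.7 and 20.3 TPM against 0, 2 and 0 counts. SST, GRP, POMC, GAL, NTS and PENK were not detected. Among somatostatin receptors, targets of imaging and therapy in neuroendocrine tumors, SSTR2 alone of the 5 was present, at 8.50, 10.8 and 11.6 TPM, while SSTR1, SSTR3 and SSTR4 were not detected and SSTR5 had 1, 5 and 0 counts.

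Notch pathway genes were present for 7 of 15, near the background of 53.1%. RBPJ, the DNA-binding factor of the pathway, stood alone at 74.5, 115 and 122 TPM. DLL3, an inhibitory ligand of neuroendocrine tumors, had 6.26, 9.77 and 11.5 TPM. Of the receptors, NOTCH4 was at 6.95, 8.53 and 8.52 TPM on only 77, 107 and 107 counts. NOTCH1 was at 0.76, 1.13 and 0.93 TPM on 46, 85 and 48 counts, so their counts differed less than their TPM. NOTCH2 and NOTCH3 were below 0.40 TPM in each library. Of the target genes, HEY1 (3.03, 6.74 and 4.97 TPM) and HEY2 (1.07, 1.41 and 1.60 TPM) were present, while HES1 and HES5 reached 1 TPM in replicates 2 and 3 but not in replicate 1.

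Receptor tyrosine kinases were sparse, with 14 of 58 present and 12 not detected. RYK, a Wnt receptor, had 32.3, 53.4 and 53.2 TPM, and KIT, the stem cell factor receptor, had 24.2, 40.0 and 37.6 TPM. DDR1, a collagen receptor, and PTK7 followed at means of 28.5 and 21.03 TPM. Neighbors in this order overlapped in range, although RYK, KIT, DDR1 and PTK7 kept their order in all 3 libraries. ERBB3 had 4.06, 11.3 and 15.3 TPM, while its partners ERBB2 and ERBB4 had means of 0.653 and 0.997 TPM. ALK was at 2.34, 5.34 and 4.31 TPM. EGFR, MET, PDGFRA, PDGFRB, KDR and FLT1 were not detected.

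The HOX clusters, which record position along the body axis, differed in summed level. Only HOXB was uniform, and levels within HOXA, HOXC and HOXD were uneven. All 10 HOXB genes (chr17:48528526-48728750, GRCh38) had 0 counts and a TPM of 0 in each library. HOXD (chr2:176092721-176190907) held 7 present genes of 9 and a summed level of 102, 128 and 128 TPM. HOXA (chr7:27092993-27200091) held 6 of 11, with a sum of 38.3, 59.2 and 58.7 TPM. HOXC (chr12:53938831-54056030) held 3 of 9, with a sum of 7.01, 9.70 and 9.82 TPM. In each library the sums kept the order HOXD, HOXA, HOXC without overlap.

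HOXD8 was the highest HOX gene at 52.6, 63.8 and 61.5 TPM, ahead of HOXD4 at 20.2, 30.2 and 30.6 TPM without overlap. HOXA9 followed at 17.9, 27.9 and 25.6 TPM, overlapping HOXD4, and HOXA7 was at 8.62, 13.5 and 11.7 TPM. The last genes of the clusters, with the numbers 12 and 13, had at most 0.58 TPM in any library. HOXA6 and HOXA3 missed the level for present in replicate 1 only, at 0.95 and 0.42 TPM. The whole list stood at 16 present of 39 and 13 not detected.

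**Figure D4:**
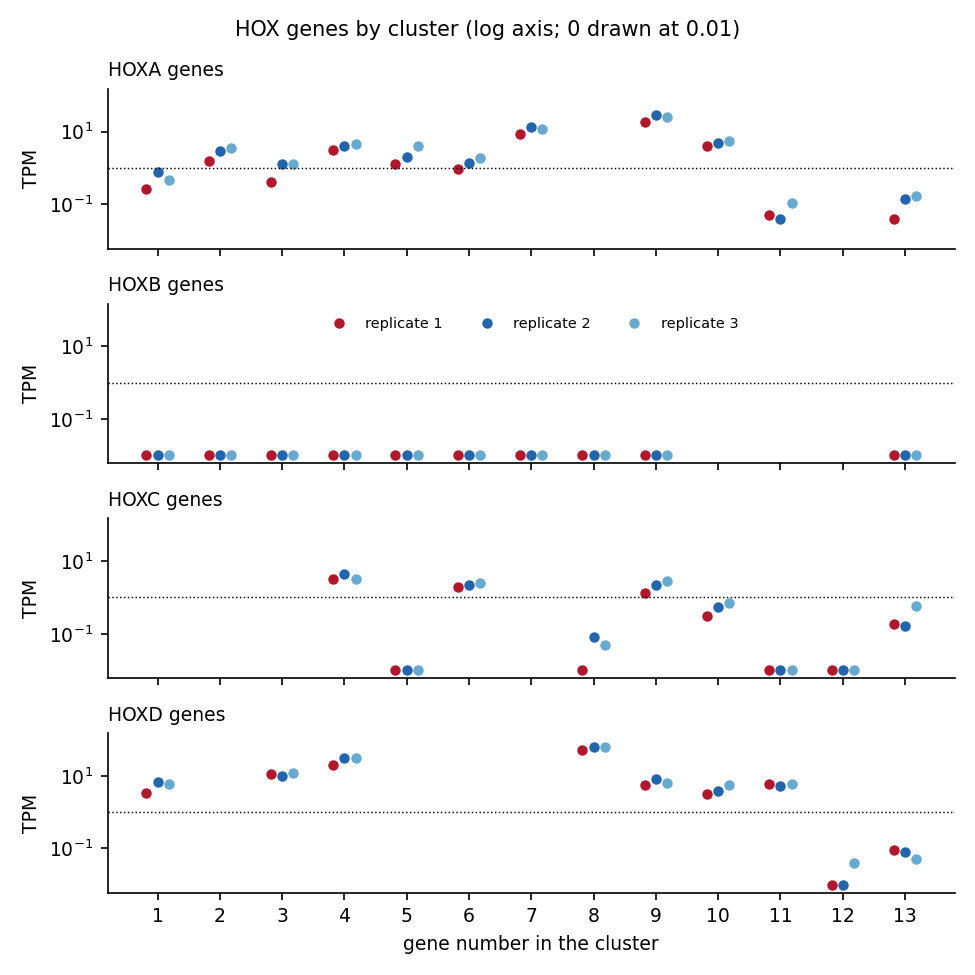
TPM of 39 HOX genes in control IgG replicates 1, 2 and 3, by cluster and gene number (log axis, a value of 0 drawn at 0.01, dotted line at 1 TPM). All 10 HOXB genes lie at 0, while 7 HOXD, 6 HOXA and 3 HOXC genes lie above the line in each library.

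Antigen presentation genes split by step. B2M, the light chain of MHC class I, had 453, 443 and 411 TPM, HLA-C had 447, 395 and 400.3 TPM and HLA-B had 247, 225 and 230 TPM. HLA genes differ between people, and reads of an allele unlike the reference can be lost or go to another HLA gene, so levels between them are uncertain. TAP1 and TAP2, the peptide transporter, and the immunoproteasome genes PSMB8 and PSMB9 had at most 1 count in any library. No listed class II gene of 10 was present, and 7 were not detected, HLA-DRA among them. Of 15 interferon-stimulated genes, 3 were present, among them IFI6 (13.8, 38.6 and 38.6 TPM) and OAS3 (5.94, 10.03 and 10.6 TPM), while MX1, MX2, OAS2, IFIT3, IFI44 and IFI44L were not detected.

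Of 18 listed cancer-testis genes, 2 were present and 15 were not detected. PRAME, an antigen of several tumors, had 66.4, 97.8 and 90.6 TPM. CTAG1B was the other, at 11.1, 14.3 and 5.27 TPM, but it had 0, 0 and 2 counts and a near-identical neighboring copy, so its level is uncertain. Outside the list, and chosen after its values were seen, the cancer-testis gene MAGEA9B had 16.05, 22.0 and 24.3 TPM on 34, 77 and 55 counts, and it too has a near-identical copy. Of 10 oncofetal genes, 3 were present and 3 were not detected. IGF2BP3, the RNA-binding protein under study in the series, had 54.3, 67.6 and 65.6 TPM (chr7:23310209-23470491). Of its relatives, IGF2BP2 was not detected and IGF2BP1 had 0, 1 and 0 counts. LIN28B, a repressor of let-7 miRNAs, had 16.1, 22.7 and 26.8 TPM, while LIN28A and HMGA2 were not detected. The imprinted RNA H19 had 9.83, 42.9 and 43.1 TPM, with replicate 1 far below the others.

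Genes of the cell cycle were present for 19 of 20. PCNA, the sliding clamp of DNA replication, had 2348, 2689 and 2653 TPM and lay above all others. CDK1 (371, 432 and 393 TPM), MCM4 (261, 533 and 399 TPM) and RRM2, a ribonucleotide reductase subunit, followed. The exception was MKI67, the gene for the Ki-67 antigen, which was trace at 0.93, 1.43 and 1.39 TPM although it had 137, 185 and 128 counts. Replication-dependent histones were present for 57 of 66 genes. These mRNAs, which lack a poly(A) tail, held 5.29%, 3.595% and 3.83% of the TPM, but 1.54%, 0.733% and 0.753% of the raw counts. Some had a high TPM on almost no counts, such as H2AC17 with 3, 6 and 4 counts at a mean of 1195 TPM. Telomerase cofactors NOP10, NHP2, GAR1 and DKC1 were present with means of 55.7 to 253 TPM. The RNA template TERC was at 6.39, 8.36 and 6.96 TPM with 0 counts, and TERT, the catalytic subunit, had 4, 2 and 0 counts.

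Long noncoding RNAs with at least 10 counts in each library were led by MALAT1 of nuclear speckles (chr11:65497640-65508073), at 3176, 2710 and 2989 TPM. SNHG8 (1636, 1574 and 1512 TPM) and SNHG6 (1494, 1346 and 1334 TPM), hosts of small nucleolar RNAs, and GAS5 (439, 379 and 362 TPM) followed without overlap. ZFAS1, SNHG32, NORAD and DANCR had means of 212 to 257 TPM, and each overlapped its neighbor in that order, while ZFAS1 lay above DANCR. The pseudogenes with the highest level and at least 10 counts were AC243919.1 (622, 525 and 506 TPM), HMGN2P5 and HMGB1P6, and reads of pseudogenes can come from their parent genes. NEAT1 of paraspeckles was at 36.3, 64.5 and 75.4 TPM. The imprinted MEG3 had 1, 1 and 0 counts, and HOTAIR was not detected.

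All 13 mitochondrial mRNAs were present and together held 3.07%, 3.51% and 3.53% of the TPM. MT-CO1 (7793, 9757 and 9875 TPM) and MT-CO3 (6622, 9054 and 9542 TPM), subunits of cytochrome oxidase, lay above the other 11. The mitochondrial rRNAs, MT-RNR1 and MT-RNR2, were low at means of 88.9 and 70.3 TPM, and all 47 other rRNA genes listed were not detected. The paper does not say whether rRNA was removed in library preparation, so rRNA levels in the cell cannot be read from these values. MT-ND6, the only mRNA on the light strand, was the lowest of the 13 mRNAs at 78.3, 54.4 and 75.7 TPM.

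Reads at miRNA genes were rare. Of 1881 such genes, 281 had a count in any library, 8 had at least 10 counts in each, and TPM was listed at 0 for all. MIR375, the gene of a miRNA abundant in Merkel cells and MCC (chr2:219001645-219001708), had 14, 31 and 24 counts. Of the miR-200 family, which keeps epithelial identity, MIR429 had 2, 4 and 3 counts, MIR141 had 1, 1 and 3, MIR200A had 2, 0 and 1 and MIR200B had 0, 0 and 1. The other 22 of 27 listed miRNA genes, among them MIR200C, MIR182, MIR183 and MIR21, had 0. Counts at a hairpin gene can come from its primary transcript, so they say nothing of the level of the mature miRNA. The miR-429 sequence and the 3p arms of the other listed genes with any count are shown with the seed (bases 2 to 8) in capitals, from RefSeq on GRCh38.p14, to show which share a seed.
hsa-miR-375-3p: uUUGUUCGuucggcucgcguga
hsa-miR-141-3p: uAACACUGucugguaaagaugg
hsa-miR-200a-3p: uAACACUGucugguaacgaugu
hsa-miR-200b-3p: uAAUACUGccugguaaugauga
hsa-miR-429: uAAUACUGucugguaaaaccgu

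The miR-141 and miR-200a arms share 1 seed, and miR-200b and miR-429 share another. The 5p arms of miR-200a and miR-200b, not shown, share a seed too. The miRNA genes with the most counts were MIR1282 (217, 251 and 210 counts) and MIR1244-2 (173, 264 and 225 counts). The whole of MIR1282 lay in exon sequence of genes on the other strand in GENCODE version 44, and whether the counting used strand is not given in the sources used here, so its reads cannot be told from those of its neighbors.

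Families of tissue-restricted genes were mostly below the level for present. Of 390 olfactory receptor genes, 0 were present and 366 were not detected, and the one with the highest mean, OR2AG2, had 21, 43 and 17 counts. Type 2 taste receptors had 0 present of 24, interleukins 0 of 46, defensins 1 of 45, keratin-associated proteins 2 of 94 and CC and CXC chemokines 2 of 41. The same table held 435 present of 515 ZNF zinc finger genes (84.5%), above the background of 53.1%, and 170 of 377 solute carriers. These families were chosen after values were seen.

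The 3 libraries were not equally alike. Across 10320 present nuclear protein-coding genes with at least 10 counts in each library, the log2 TPM of replicates 2 and 3 correlated with r = 0.9891, against 0.9788 and 0.9790 for replicate 1 with each. This is across genes of libraries from 1 line, and genes are not replicates. A TPM ratio above 2-fold was seen for 1.51% of genes between replicates 2 and 3, and for 11.1% and 11.2% between replicate 1 and each of them. The median coefficient of variation of a present gene was 21.7%, with quartiles at 14.2% and 29.9%. The between-library variation estimated by edgeR in the raw counts, beyond counting error, was 13.4% over 13427 genes, and it was 3.52% without replicate 1.

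By TPM, replicate 1 held more of the structured, histone and ribosomal protein RNAs and less of most other mRNAs. The shift to lower values was smallest in the shortest mRNAs. The median log2 ratio of replicate 1 to the mean of replicates 2 and 3 was -0.51 over 10590 present genes in TPM, -0.31 after rescaling over nuclear protein-coding genes, and -0.094 in CPM. On the rescaled TPM the median was -0.13 for the shortest of 4 equal groups of genes by transcript length (192 to 2039 bases). For the other groups it was -0.325, -0.382 and -0.40 by rising length, the longest being 5242 to 34626 bases. In CPM the 4 medians were 0.090, -0.092, -0.165 and -0.176 from shortest to longest. Ribosomal protein genes were at 0.41 on the rescaled TPM, with 3 of 79 lower in replicate 1, and histones were at 0.66, with 2 of 57 lower. H3C3 had 481, 173 and 154 TPM, and H1-5 is given above. Replicate 1 had the fewest counts, and the part of depth, RNA integrity or IP conditions in this was not tested.

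Lipid synthesis genes were the lowest in replicate 1 of the gene groups compared in the plot of replicate 1 ratios. All 27 genes of sterol and fatty acid synthesis and its control, a list made after values were seen, were present, and on rescaled TPM 26 of the 27 were lower in replicate 1 than in the mean of the other two, against 80.7% of all present genes. Their median log2 ratio was -0.81. HMGCS1, an early enzyme of cholesterol synthesis, had 457, 1261 and 1274 TPM. SCD, which desaturates fatty acids, had 148, 479 and 474 TPM, and ACLY, which makes acetyl-CoA from citrate, had 43.5, 151 and 145 TPM. In each of these replicates 2 and 3 were nearly level and replicate 1 lay below both.

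Of 16 glycolysis genes 15 were present, with a median log2 ratio of -0.49 on rescaled TPM. Lower values in replicate 1 were not particular to metabolic genes. The present Merkel lineage factors had a median of -0.62, with 9 of 10 lower in replicate 1. The present granule and synaptic genes had -0.53, with 14 of 14 lower. These 2 groups are not in the plot. LDHA, lactate dehydrogenase A, had 62.2, 199.9 and 191 TPM, while GAPDH had 374, 354 and 344 TPM. The steadiest abundant protein-coding genes were RPGRIP1L (100.5, 100.1 and 100.7 TPM), OSTC, COA6, SNX6 and PTTG1, whose coefficients of variation were all below 1%. This holds in TPM alone, since the counts of RPGRIP1L (5211, 5760 and 4830) did not follow the library totals. The most variable was AL034430.2, at 84.8, 310.1 and 30.1 TPM with 0 counts, and all of its exon bases lay within those of another gene on the same strand.

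**Figure D5:**
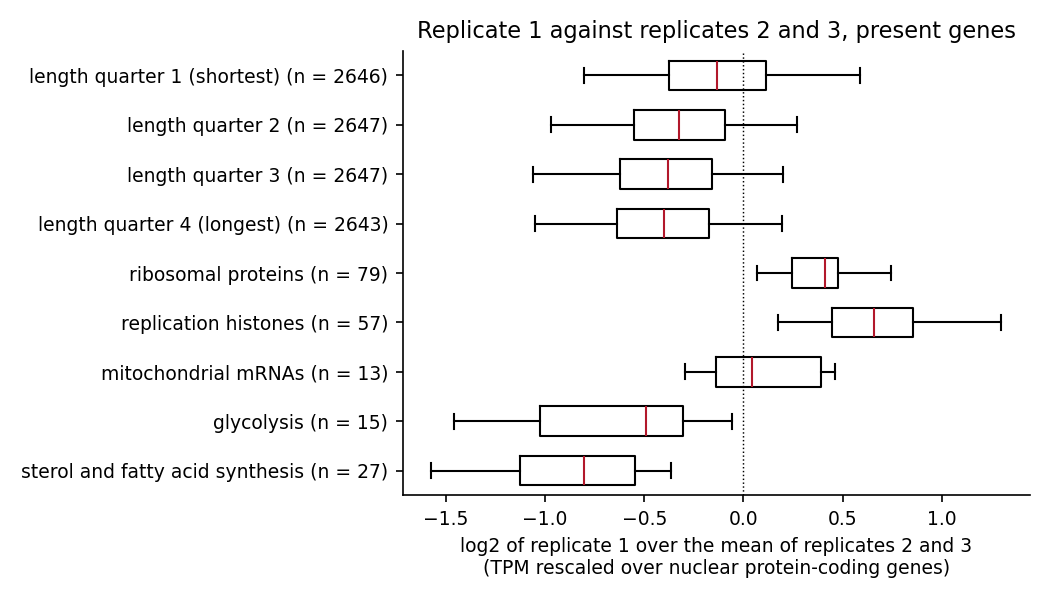
Log2 ratio of control IgG replicate 1 to the mean of replicates 2 and 3, in TPM rescaled over nuclear protein-coding genes, for present genes (boxes from the first to the third quartile, red line at the median, whiskers from the 5th to the 95th percentile). Histones and ribosomal protein genes lie right of 0, and sterol and fatty acid synthesis genes lie farthest left, with a median of -0.81.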

How the data were processed

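The 3 IgG IP libraries of WaGa cells were taken by their titles. Per the paper and the labels, the authors aligned reads to GRCh38 with STAR 2.7.9a and quantified genes of GENCODE version 37 with RSEM. They deposited raw counts per gene without normalization, TPM values scaled to one total per library, and FPKM values. The deposited FPKM were a fixed multiple of TPM in each library (1.11, 0.831 and 0.834 in replicates 1 to 3). The program that made the counts and its strand setting are not given in the sources used here.

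Tables were joined by gene identifier. The 4 viral genes were not described. Levels, shares and coefficients of variation were computed with pandas 2.3.3, and the common dispersion of the raw counts with edgeR 4.0.16 (R 4.3.3, filterByExpr, TMM, intercept only), both tested on simulated data. Transcript length, GC content and coordinates came from GENCODE version 44 on GRCh38, in which 60481 of 60651 identifiers were found, and start and miRNA sequences from RefSeq. Named genes were the 20 highest by mean TPM of any type and of nuclear protein-coding genes, the 8 highest lncRNA genes and 3 pseudogenes with at least 10 counts in each library, the 10 most and 5 least variable abundant genes, and members of fixed lists. Members and lists were chosen with earlier results of these data known. Family patterns, genes named from them, and the lipid synthesis and glycolysis lists were added after values were seen. Other presence thresholds and units, other scalings and leaving out each library were tried. Some members of the lists are not reported here by name.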

Additional observations from a re-analysis of the deposited data

How the results depend on the processing

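The counts of present genes, of present protein-coding genes and of present Merkel and neuroendocrine markers stayed within 1.5 times of the reported value at a TPM of 0.5 or 2, on the mean TPM, at 10 raw counts, in FPKM or CPM, and without each replicate. The count of undetected protein-coding genes, 4576, ran to 4963 by raw counts alone, 5061 by TPM alone, and 4840 to 5107 without a replicate. The 6 markers of other cell types became 3 at a TPM of at least 2. Mitochondrial genes held 3.39% of the TPM on average, 4.16% over protein-coding genes alone and 2.54% of raw counts. Ribosomal protein genes held 17.0%, 21.1% and 5.21% in the same order. A share of 50% of the TPM lay in 156 genes, against 256 over protein-coding genes alone and 884 in raw counts. The median coefficient of variation was 21.7% in TPM, 10.7% in CPM, 10.35% with TMM factors and 13.02% in FPKM, and it ran from 6.20% to 25.1% without a replicate. The between-library variation from edgeR ran from 3.52% to 16.5% without a replicate, lowest without replicate 1. The median log2 ratio of replicate 1, with alternatives chosen after seeing the data, was -0.31 on rescaled TPM and -0.094 in CPM. No paired analysis was possible because 1 group was described. At 3 libraries no order of close levels is set, and genes near 0.2 to 0.3 CPM are at the counting floor.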

Other observations

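Genes outside the lists were read after their values were seen. VIM, the intermediate filament of mesenchymal cells, and NKX2-1, the factor that marks small cell carcinoma of the lung, had 0 counts and a TPM of 0 in all 3 libraries. Another member of that homeobox family, NKX2-4, was present at 20.4, 29.8 and 27.7 TPM and was the only one of 14 NKX genes to be so. Of 19 SOX genes, 8 were present. Beside SOX2 and SOX11 these included SOX4 at 28.4, 55.0 and 57.9 TPM, SOX6 at 20.6, 25 and 22.3 TPM and SOX3 at 6.77, 11.5 and 13.3 TPM.

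The 2 present chemokines were CCL28, a mucosal chemokine, at 20.2, 27.4 and 26.4 TPM, and CXCL12 at 6.71, 15.5 and 16.1 TPM. The present defensin was DEFB1 at 13.7, 7.19 and 9.19 TPM, and the 2 present keratin-associated genes were KRTAP17-1 and KRTAP1-4 at means of 7.08 and 3.07 TPM.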
